A study of Mus musculus with 6 samples.

Results

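CTCF sites at 3 clusters of imprinted genes were taken from peak lists of mouse erythroblasts with and without BRD2. Members were all peaks inside 3 windows of genome build mm9: 149.6 to 150.75 Mb of chromosome 7 (H19, Igf2, Kcnq1ot1 and Cdkn1c), 110.5 to 111.1 Mb of chromosome 12 (Dlk1 and Meg3) and 11.7 to 12.1 Mb of chromosome 11 (Grb10). Overlapping peaks of different lists were joined into 1 site. This gave 51 sites of 48367 in the whole series, of which wild type gave 47 peaks, clone D 41 and clone C8 40.

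The cells were G1E-ER4, an erythroblast line without GATA1 in which GATA1 is supplied as a fusion to the hormone-binding domain of the estrogen receptor. All groups had this background, and all received estradiol at 100 nM for 24 hours to activate GATA1. The groups were wild type G1E-ER4 cells, the sub-line D_Brd2KO and the sub-line C8_Brd2KO. Each sub-line is 1 clone made with CRISPR/Cas9, in which BRD2 was not detectable. BRD2 belongs to the BET family, whose bromodomains recognise acetylated histone tails. CTCF chromatin immunoprecipitation and sequencing (ChIP-seq) gave 1 library per line, and the 3 input libraries were not used. The comparison asks whether CTCF occupancy differs when BRD2 is lost. No test was made between the lines, since 1 library against 2 cannot give a one-sided exact permutation p below 0.333. The 2 clones give the only spread between libraries of 1 genotype, which also holds what differs between clones. The lists carry no expression values, so the erythroid label was not checked against marker genes.

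Imprinted genes are expressed mainly from the chromosome of 1 parent. At H19 and Igf2, CTCF binds an unmethylated control region upstream of H19 on the maternal chromosome and blocks the action of shared enhancers on Igf2, while methylation of the paternal copy keeps CTCF away. Igf2 encodes a fetal growth factor and H19 a long noncoding RNA. Kcnq1ot1 is a long noncoding RNA made from the paternal chromosome that silences neighbours such as Cdkn1c, an inhibitor of cyclin-dependent kinases. Dlk1, a transmembrane protein of the Notch ligand family, is expressed from the paternal chromosome and the noncoding RNA Meg3 from the maternal one. Grb10 encodes an adaptor protein that restrains insulin and growth factor signalling. The peak lists do not separate the parental chromosomes.

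No mm9 sequence was used here, so the bases under the peaks are not shown and sites are given without exon or intron. The RefSeq gene table of assembly GRCm38.p6 gave the order of 23 listed genes. On chromosome 7 it runs H19, Igf2, Ins2, Th, Ascl2, Cd81, Tssc4, Trpm5, Kcnq1, Kcnq1ot1, Cdkn1c, Slc22a18, Phlda2 and Nap1l4. On chromosome 11 Grb10 lies between Ddc and Cobl, and on chromosome 12 Dlk1 and Meg3 are followed by Rtl1, Rian, Mirg and Dio3. Approximate mm9 positions of 149.76 Mb for H19, 149.84 Mb for Igf2, 150.4 Mb for Kcnq1ot1 and 150.64 Mb for Cdkn1c came with the choice of windows and were not checked against an mm9 annotation.

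The RefSeq promoter table holds starts of 5 of the 7 named genes (Igf2, Kcnq1ot1, Dlk1, Meg3 and Grb10), with 10 promoters, and not of H19 and Cdkn1c. The 250 bases before each start were searched on both strands for 2 forms of a CTCF core. The first form reads CC, then 4 bases of any kind, then GGNGGC. The second reads CC, 3 bases of any kind, AG, 2 bases of any kind and GGC, and some stretches fit both forms. Of all 32851 promoters of this length, 9.27% held the first form, 7.17% the second and 12.8% either. Among the 10 promoters, 1 of Grb10 held a match, with 2 copies of the first form on opposite strands, and it was also the richest in G and C at 81.2%. The promoters of Kcnq1ot1 and Meg3 are shown beside it because their windows held the longest stretches without peaks, described further on. Capitals mark the matches, and bases run 5′ to 3′ along each gene. A match describes the letters and is no evidence of binding, and the positions are on GRCm38.p6, which cannot be set against the mm9 positions of the peaks.
Grb10 (chr11:12037421-12037670, GRCm38.p6, minus strand): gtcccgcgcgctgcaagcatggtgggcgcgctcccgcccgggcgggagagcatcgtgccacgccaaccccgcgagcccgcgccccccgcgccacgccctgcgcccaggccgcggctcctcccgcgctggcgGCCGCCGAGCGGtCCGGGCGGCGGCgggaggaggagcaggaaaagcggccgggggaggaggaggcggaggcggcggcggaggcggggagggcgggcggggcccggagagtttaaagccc
Kcnq1ot1 (chr7:143296548-143296797, GRCm38.p6, minus strand): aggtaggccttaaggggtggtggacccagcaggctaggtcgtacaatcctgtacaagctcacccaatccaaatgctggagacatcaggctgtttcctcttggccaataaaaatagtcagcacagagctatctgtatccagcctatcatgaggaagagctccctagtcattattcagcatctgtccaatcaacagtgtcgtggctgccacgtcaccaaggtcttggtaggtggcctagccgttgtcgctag
Meg3 (chr12:109540746-109540995, GRCm38.p6, plus strand): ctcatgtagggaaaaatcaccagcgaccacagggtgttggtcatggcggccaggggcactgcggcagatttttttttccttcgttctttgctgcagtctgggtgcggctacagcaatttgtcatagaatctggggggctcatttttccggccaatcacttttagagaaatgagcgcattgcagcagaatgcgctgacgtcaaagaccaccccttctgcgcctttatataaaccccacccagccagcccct

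Most of the sites were called in every line, through the chromosome 7 window. Of the 51 sites, 37 were called in all 3 lists (72.5%, exact 95% interval 58.3 to 84.1), against 49.5% of all regions. By window these were 33 of 40 on chromosome 7, 4 of 10 at Grb10 and 0 of 1 at Dlk1 and Meg3. These shares take no account of peak strength. Wild type alone held 8 sites, clone D alone 3 and clone C8 alone 1, while over all regions the shares were 26.2%, 4.7% and 7.94%. Site 29 was held by the clone lists but not by the wild-type list, a class of 4.48% of all regions. Site 18 was called in wild type and clone C8 and not in clone D (4.54% of all regions), and no site was called in wild type and clone D alone (2.7% of all regions). The small classes depended on the threshold: there were 3 sites in wild type alone when only peaks with a −log10 p of 10 or more were used, and 5 sites were missing from wild type alone when the false discovery rate was held to 0.05. Without clone D or without clone C8, 2 and 4 sites of the other clone were missing from wild type. The intervals cover counting error only, and neighbouring sites of 1 library are not independent.

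The overlap of single peaks lay above that of the whole lists. In clone D, 38 of the 47 wild-type peaks were overlapped (80.9%, 66.7 to 90.9), against 63.1% of the whole wild-type list. Clone C8 also overlapped 38 (80.9%), against 65.3%, and both clones overlapped 37 (78.7%, 64.3 to 89.3), against 59.8%. Strong peaks are shared more often than weak ones in these lists. Peaks of the same 10 strength classes by enrichment were overlapped at rates of 73.5% (clone D), 75.8% (clone C8) and 70.4% (both), and all 3 values lay inside the counting intervals of the windows. Wild type overlapped 37 of 41 clone D peaks (90.2%), against 85.1% of that list, and 38 of 40 clone C8 peaks (95.0%), against 81.4%. Clone C8 overlapped 38 of the 41 peaks of clone D (92.7%), against 87.9%, and clone D 38 of the 40 peaks of clone C8 (95.0%), against 81.3%. Peaks of the same strength classes were overlapped at 87.8% (clone D in wild type), 86.0% (clone C8 in wild type), 90.6% (clone D in clone C8) and 86.2% (clone C8 in clone D). These 4 rates also lay inside the counting intervals of the windows, which were 76.9 to 97.3, 83.1 to 99.4, 80.1 to 98.5 and 83.1 to 99.4. In the windows, the peaks of a clone found in wild type and those found in the other clone thus differed by at most 1 peak.

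The 3 clusters differed in how densely they were occupied. The chromosome 7 window held 33.0 peaks per Mb in wild type, 30.4 in clone D and 31.3 in clone C8, against 15.6, 11.6 and 12.5 per Mb over the whole lists. The Grb10 window held 20.0, 15.0 and 10.0 peaks per Mb. In the Dlk1 and Meg3 window wild type had 1 peak in 0.6 Mb, which is 1.67 per Mb, and both clones had 0. Of the 51 sites, 8 had a neighbour within 2 kb (15.7%), against 19.8% of all regions, and the median distance to the nearest site was 7.76 kb, against 9.03 kb. The depth of the libraries is unknown, so counts of peaks per Mb cannot be compared between lines.

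Values for single sites follow by stretch of the chromosome, starting at H19, and sites are numbered by position within each window. Enrichment is the authors' fold enrichment of a peak, and its rank is the place within its own list, from 1 for the strongest to 40271 in wild type, 29769 in clone D and 32308 in clone C8. The median enrichment of the whole list was 22.7 in wild type, 17.4 in clone D and 21.5 in clone C8, so enrichments and ranks describe a site within its list and show no change between lists. For sites called in all 3 lists, the enrichment was also ranked among the 23933 regions that all 3 lists hold. That rank is given as a percentile, with 100 for the strongest, and covers the same regions in each line.

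**Figure D1:**
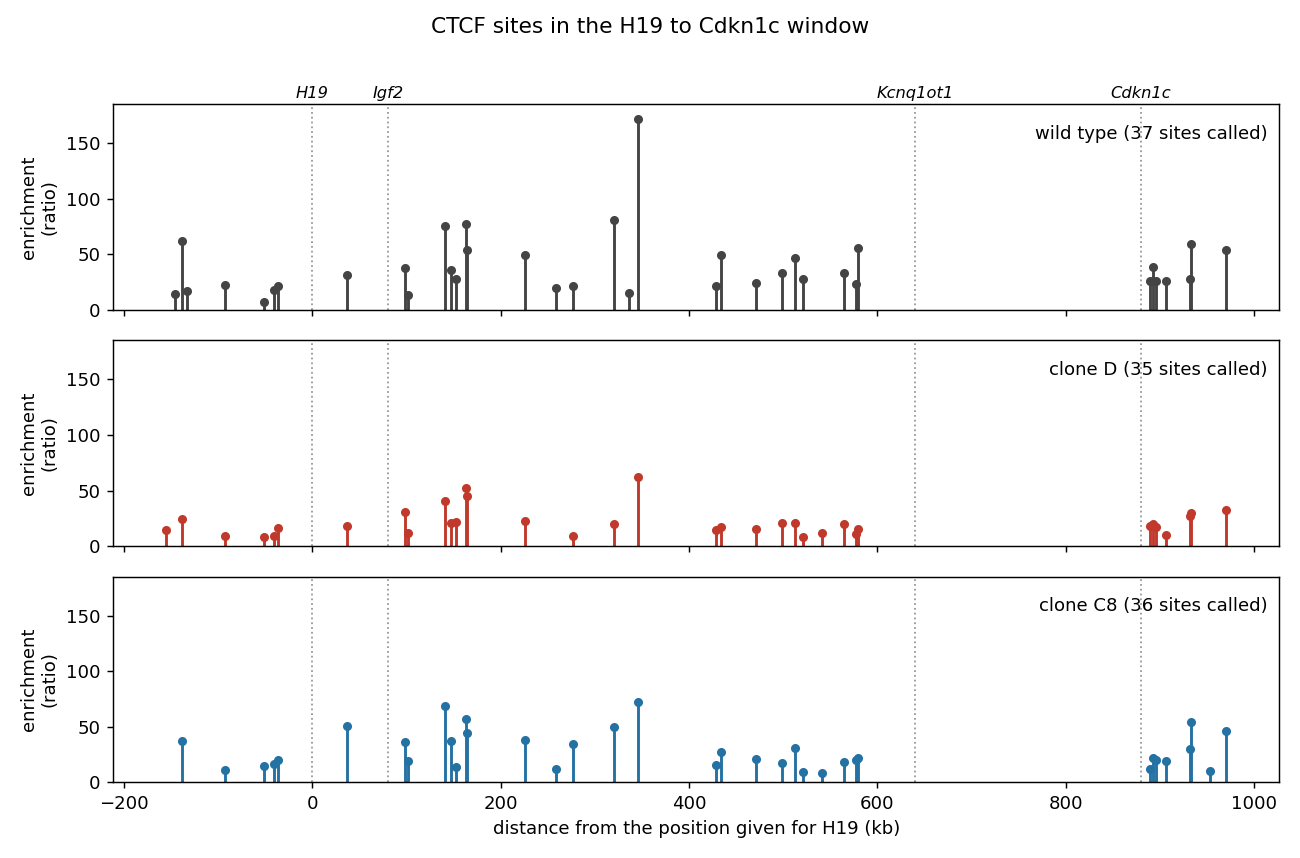
Enrichment (a ratio, linear axis) of each CTCF site called in the chromosome 7 window, by line, against the distance in kb from the position given for H19; each stem is 1 site and dotted lines mark the positions given for 4 genes. The strongest site is the same in the 3 lines, at 171.51, 62.38 and 71.91, and no stem stands in the 309.5 kb around the Kcnq1ot1 line.

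The control region upstream of H19 (149.766 to 149.769 Mb) held no peak in any of the 3 lists. The nearest peaks were site 8, which ended 41.8 kb before it, and site 9, which began 27.4 kb after it. The stretch without peaks was 72.2 kb long in each list. Distances of at least this length made up 20.1% of the 48346 distances between neighbouring regions of the series, whose median was 20.7 kb. Each distance counts once in this share. A position set beforehand falls more often in a long stretch, so a stretch of this length around it is less rare than the share. The absence of a peak from the lists as used here does not show that the region is unbound, and whether the lists are complete there is not known.

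Site 8 (chr7:149723625-149724241) had an enrichment of 21.81 in wild type (rank 20368), 16.23 in clone D (rank 16170) and 20.34 in clone C8 (rank 17206). It was the site nearest to the position given for H19, at 35.8 kb. Its percentile was 19.3 in wild type, 33.9 in clone D and 30.2 in clone C8, so wild type was lower than both clones, which differed by 3.69 points. Site 9 (chr7:149796397-149796891) had an enrichment of 31.35 in wild type (rank 14970), 18.22 in clone D (rank 14067) and 50.39 in clone C8 (rank 2757). On the far side of the stretch without peaks, this was the only site between the positions of H19 and Igf2. Its percentile was 38.7 in wild type, 41.9 in clone D and 88.2 in clone C8: clone C8 stood far above the other lines, and a difference as large between the clones was passed by 3.04% of all common regions.

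The sites before H19 were mostly weak. Site 3 (chr7:149621448-149621969) had an enrichment of 61.78 in wild type (rank 3849), 24.24 in clone D (rank 9363) and 37.43 in clone C8 (rank 6882). It was the strongest of the 8 sites there, and its percentile was 84.0 in wild type, 61.0 in clone D and 71.3 in clone C8. Site 5 (chr7:149666955-149667511) had an enrichment of 22.42 in wild type (rank 20200), 8.64 in clone D (rank 26492) and 11.00 in clone C8 (rank 27950). Both clones ranked it among their weakest common regions, at percentiles of 4.91 and 4.24, against 21.0 in wild type. Site 6 (chr7:149708231-149708688) had an enrichment of 7.55 in wild type (rank 40222), 8.59 in clone D (rank 26518) and 14.59 in clone C8 (rank 22538). This was among the weakest wild-type peaks of the series, at a percentile of 0.00836. Site 7 (chr7:149718737-149719131) had an enrichment of 17.84 in wild type (rank 24132), 9.33 in clone D (rank 25158) and 16.13 in clone C8 (rank 20993). Its percentile lay between 7.27 and 18.0 in all lines. The other 3 sites of this stretch were called in 1 list each, as were 18767 of the 48367 regions of the series. Site 1 (chr7:149604534-149605105) had an enrichment of 14.65 in clone D (rank 17843). Site 2 (chr7:149614072-149614464) had an enrichment of 14.62 in wild type (rank 29612). Site 4 (chr7:149626363-149626854) had an enrichment of 16.63 in wild type (rank 26506). They lay in the weaker part of their lists.

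Past the position of Igf2, sites ranged from weak to strong. Site 10 (chr7:149857884-149858504) had an enrichment of 37.67 in wild type (rank 11440), 30.46 in clone D (rank 5774) and 36.17 in clone C8 (rank 7207). It was the nearest site to the position given for Igf2, at 17.9 kb. Its percentile was 51.7 in wild type, 75.7 in clone D and 69.5 in clone C8, with wild type below both clones. Site 11 (chr7:149861475-149862103) had an enrichment of 13.80 in wild type (rank 32370), 11.48 in clone D (rank 21949) and 18.87 in clone C8 (rank 18392). Wild type was again lowest, at a percentile of 2.52, against 15.0 and 26.1 in the clones. Site 12 (chr7:149900408-149901047) had an enrichment of 75.33 in wild type (rank 1766), 40.72 in clone D (rank 2349) and 68.40 in clone C8 (rank 622). This site stood at percentiles of 90.2 to 97.4 in all lines. Site 13 (chr7:149906531-149907094) had an enrichment of 35.68 in wild type (rank 12373), 21.05 in clone D (rank 11704) and 37.47 in clone C8 (rank 6667). Site 14 (chr7:149911897-149912503) had an enrichment of 27.75 in wild type (rank 16417), 21.41 in clone D (rank 11319) and 13.40 in clone C8 (rank 24023). At site 14 the clones were 42.1 points apart, with clone D at 52.6 and clone C8 at 10.5, and wild type lay between them.

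A close pair of strong sites followed. Site 15 (chr7:149922645-149923312) had an enrichment of 76.86 in wild type (rank 1685), 51.87 in clone D (rank 678) and 56.85 in clone C8 (rank 1629). Site 16 (chr7:149923482-149924123) had an enrichment of 54.14 in wild type (rank 5615), 45.28 in clone D (rank 1441) and 43.93 in clone C8 (rank 4369). The sites lay 0.169 kb apart and were called as separate peaks in each list. Site 15 had percentiles of 93.0 to 97.1 and site 16 of 76.6 to 93.9. Site 17 (chr7:149985197-149985803) had an enrichment of 49.56 in wild type (rank 6906), 22.60 in clone D (rank 10538) and 37.57 in clone C8 (rank 6632). Its percentiles were 56.2 to 72.3. Site 18 (chr7:150018238-150018554) was called in 2 lists, with an enrichment of 19.82 in wild type (rank 22021) and 11.63 in clone C8 (rank 26294). It was weak in both, and in clone C8 its −log10 p was 5.48, close to the lowest value of 5 in that list.

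The strongest site of the 3 clusters lay in the middle of the chromosome 7 window. Site 22 (chr7:150105100-150105703) had an enrichment of 171.51 in wild type (rank 21), 62.38 in clone D (rank 219) and 71.91 in clone C8 (rank 455). It was the strongest in each line, and its percentile was 99.9 in wild type, 99.1 in clone D and 98.1 in clone C8. The clones differed there by 0.992 points. Site 20 (chr7:150080565-150081128) had an enrichment of 81.28 in wild type (rank 1206), 19.51 in clone D (rank 13058) and 49.79 in clone C8 (rank 2969). Its percentile was high in wild type (94.8) and clone C8 (87.6) and near the middle in clone D (45.9). Site 19 (chr7:150036601-150036983) had an enrichment of 21.81 in wild type (rank 20368), 8.83 in clone D (rank 26265) and 34.04 in clone C8 (rank 8302). Its percentile was 19.3 in wild type, 5.43 in clone D and 65.4 in clone C8, the widest difference between the clones at any member (60.01 points), which 0.447% of common regions passed. Site 21 (chr7:150095496-150096082) was called in wild type alone, with an enrichment of 15.65 in wild type (rank 28950).

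Sites 23 to 32, before the position of Kcnq1ot1, had no wild-type enrichment above 55.88. Site 23 (chr7:150188417-150189006) had an enrichment of 21.71 in wild type (rank 21383), 14.88 in clone D (rank 17420) and 15.15 in clone C8 (rank 22233). Site 24 (chr7:150193769-150194382) had an enrichment of 49.53 in wild type (rank 7222), 17.48 in clone D (rank 14797) and 27.59 in clone C8 (rank 11831). At site 24 the percentile was 69.9 in wild type, 39.1 in clone D and 51.0 in clone C8, so wild type was higher than both clones. Site 25 (chr7:150230679-150231090) had an enrichment of 23.79 in wild type (rank 18872), 15.64 in clone D (rank 16591) and 20.67 in clone C8 (rank 16582). The clones were within 0.117 points of each other at site 25, and wild type minus their mean was −8.06 points. Site 26 (chr7:150258946-150259472) had an enrichment of 33.55 in wild type (rank 13839), 20.58 in clone D (rank 11972) and 17.14 in clone C8 (rank 19777). Site 27 (chr7:150272047-150272718) had an enrichment of 46.43 in wild type (rank 8056), 20.95 in clone D (rank 11773) and 30.88 in clone C8 (rank 10086). Site 27 had percentiles of 66.5, 51.1 and 58.1 in wild type, clone D and clone C8.

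Site 28 (chr7:150280482-150281079) had an enrichment of 27.72 in wild type (rank 17081), 8.36 in clone D (rank 26720) and 9.37 in clone C8 (rank 30326). Site 28 was among the weakest common regions of both clones, at percentiles of 4.51 and 1.59, and stood at 30.9 in wild type. Site 29 (chr7:150300573-150301131) was called in the clones but not in wild type, with an enrichment of 11.62 in clone D (rank 21412) and 8.39 in clone C8 (rank 31518). It ranked in the weaker part of both lists, and in clone C8 its −log10 p was 5.34, close to the lowest value of 5 in that list. Site 30 (chr7:150324636-150325117) had an enrichment of 32.82 in wild type (rank 14024), 20.20 in clone D (rank 12408) and 18.56 in clone C8 (rank 18541). Site 31 (chr7:150337011-150337571) had an enrichment of 23.22 in wild type (rank 19911), 10.59 in clone D (rank 23238) and 19.80 in clone C8 (rank 17480). Sites 30 and 31 had wild-type percentiles between those of the clones.

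The last site before the long stretch without peaks differed most between wild type and the clones. Site 32 (chr7:150339610-150340130) had an enrichment of 55.88 in wild type (rank 5154), 15.28 in clone D (rank 17145) and 21.71 in clone C8 (rank 16045). It lay 59.9 kb before the position given for Kcnq1ot1. Its percentile was 78.5 in wild type, 30.2 in clone D and 34.5 in clone C8. The mean of the clones was 32.4 ± 2.98 (SD, n = 2). Wild type was 46.2 points above that mean, while the clones differed by 4.22 points. Of all common regions, 1.16% had a larger difference in this direction. By −log10 p, wild type was also above both clones at site 32 by more than they differed. This difference was singled out after the values were seen, and with 1 wild-type library the difference has no replicate check.

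No list held a peak from the end of site 32 to the start of site 33, a stretch of 309.5 kb that includes the position given for Kcnq1ot1. Of the distances between neighbouring regions in the series, 2.64% were at least as long. This share counts every distance once, and a position set beforehand falls more often in a long stretch than in a short one. It therefore does not say how rarely a gene position lies in such a stretch. In the single lists the stretch measured 309.6 kb in wild type, 309.7 kb in clone D and 309.6 kb in clone C8, so its length was nearly the same in the 3 lines.

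On the Cdkn1c side 8 sites were called, 7 of them in all lists, against 49.5% of all regions. Site 33 (chr7:150649638-150650264) had an enrichment of 25.77 in wild type (rank 17585), 18.47 in clone D (rank 13896) and 12.23 in clone C8 (rank 25838). It lay 9.64 kb after the position given for Cdkn1c, and its percentile was 27.9 in wild type, 42.6 in clone D and 7.22 in clone C8. Site 34 (chr7:150652099-150652727) had an enrichment of 38.79 in wild type (rank 11177), 19.86 in clone D (rank 12624) and 21.46 in clone C8 (rank 16191). Site 35 (chr7:150655809-150656394) had an enrichment of 26.25 in wild type (rank 17462), 16.79 in clone D (rank 15535) and 19.98 in clone C8 (rank 17394). Site 36 (chr7:150666317-150666976) had an enrichment of 25.87 in wild type (rank 17549), 10.37 in clone D (rank 23446) and 19.41 in clone C8 (rank 17646). These 3 sites had percentiles of 11.1 to 53.6 in all lines. Site 37 (chr7:150691617-150692226) had an enrichment of 27.82 in wild type (rank 16408), 27.40 in clone D (rank 7365) and 29.71 in clone C8 (rank 10512). Here wild type (33.3) was below clone D (69.3) and clone C8 (55.9). Site 38 (chr7:150692632-150693186) had an enrichment of 59.47 in wild type (rank 4283), 29.49 in clone D (rank 6325) and 54.26 in clone C8 (rank 2026). Sites 37 and 38 lay 0.405 kb apart, and site 38 was the strongest of the stretch in wild type and clone C8. Site 39 (chr7:150712684-150712956) was called in clone C8 alone, with an enrichment of 9.93 in clone C8 (rank 29849). Site 40 (chr7:150729853-150730800) had an enrichment of 53.80 in wild type (rank 5661), 32.79 in clone D (rank 4801) and 46.51 in clone C8 (rank 3674). Site 40 held 2 wild-type peaks, of which the stronger is given, and was the strongest of the stretch in clone D.

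The Dlk1 and Meg3 window was nearly empty. Site 41 (chr12:110639463-110639790) was its only site, with an enrichment of 14.98 in wild type (rank 29491). Its −log10 p was 7.96. Outside the window, the nearest regions of any list ended at 110361885 and began at 111269532. Clone D had no peak over 1127 kb and clone C8 none over 1494 kb, lengths that 0.978% and 0.400% of the distances within those lists reached. These shares count each distance once and do not say how rarely a window set beforehand lies in such a stretch. A difference between the lines cannot be read from 1 weak peak: 44.2% of all wild-type peaks had a −log10 p below 10, and a call in wild type alone was the case for 26.2% of the regions of the series.

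The Grb10 window held 10 sites, of which 4 were called in all lists, against 49.5% of all regions. Site 42 (chr11:11711839-11712387) had an enrichment of 43.41 in wild type (rank 9395), 34.07 in clone D (rank 4273) and 63.31 in clone C8 (rank 947). Its percentile was 61.0 in wild type, 82.2 in clone D and 95.9 in clone C8, with wild type below both clones. Site 43 (chr11:11720128-11720731) had an enrichment of 73.02 in wild type (rank 2131), 16.95 in clone D (rank 15442) and 39.56 in clone C8 (rank 5990). At this site wild type was highest and the clones were 38.3 points apart, at 91.1 in wild type, 36.7 in clone D and 75.0 in clone C8. Site 47 (chr11:11873264-11873990) had an enrichment of 70.43 in wild type (rank 2418), 48.57 in clone D (rank 1018) and 54.26 in clone C8 (rank 2026). Site 48 (chr11:11874837-11875409) had an enrichment of 24.67 in wild type (rank 18644), 17.76 in clone D (rank 14619) and 15.38 in clone C8 (rank 22137). Sites 47 and 48 lay 0.846 kb apart, and site 47 stood at percentiles of 89.9 to 95.7 in all lines. The other 6 sites of the window were called in 1 list each, as were 18767 of the 48367 regions of the series. Site 46 (chr11:11808369-11808599) had an enrichment of 21.25 in wild type (rank 21555). It was the strongest member that a single list held. Site 44 (chr11:11744300-11744566) had an enrichment of 14.29 in wild type (rank 29815). Site 50 (chr11:11995969-11996405) had an enrichment of 15.86 in wild type (rank 26877). Site 51 (chr11:12032760-12033126) had an enrichment of 9.91 in wild type (rank 38130). Like site 46, these 3 were wild-type calls. Site 45 (chr11:11754238-11754834) had an enrichment of 6.01 in clone D (rank 29604). Site 49 (chr11:11905643-11906122) had an enrichment of 9.06 in clone D (rank 25407). Both clone D calls were in the weaker part of that list.

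Sites held by 1 list were weak in all windows. The 12 such sites had enrichments of 6.01 to 21.25 and −log10 p values of 5.07 to 11.9, and 10 of the 12 were below a −log10 p of 10. Of all 18767 regions of the series held by 1 list, 17415 (92.8%) were below it. The 37 shared sites ran from 7.55 to 171.51 in wild type (median 33.6), from 8.36 to 62.38 in clone D (median 19.5) and from 9.37 to 71.91 in clone C8 (median 27.6). Among all common regions the medians were 37.0, 20.6 and 27.1, so the shared sites were close to the middle of the common regions in each line.

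**Figure D2:**
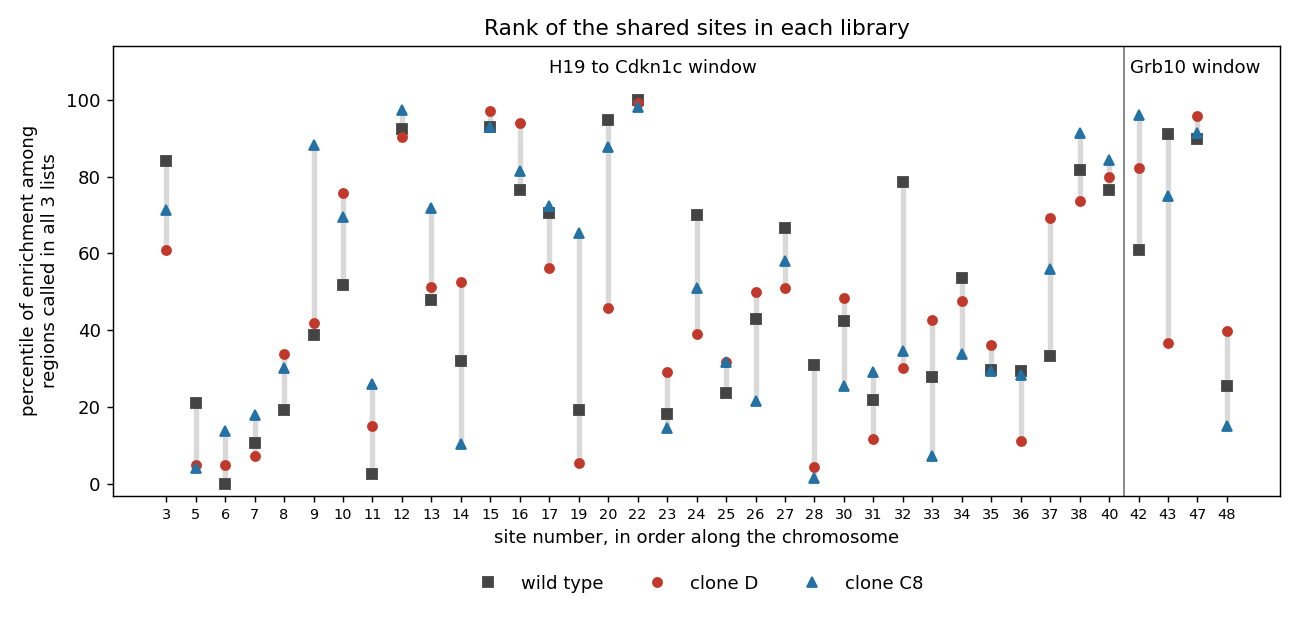
Percentile of enrichment (100 for the strongest) among the 23933 regions called in all 3 lists, for the 37 shared sites by number along the chromosomes; squares are wild type, circles clone D and triangles clone C8, and grey bars join the lowest and highest. Sites 12, 15 and 22 stand above 90 in all lines, and site 32 shows wild type at 78.5 with both clones below 35.

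Across the 37 shared sites, wild type percentiles stood neither higher nor lower than those of the clones on balance. Each list was ranked by itself, so a gain or loss of occupancy common to all regions would not show in these percentiles. A site was counted as higher or lower when wild type lay outside both clones, and farther from the nearer clone than the clones lay from each other. By this count 6 sites were higher in wild type (sites 3, 5, 24, 27, 28 and 32), which is 16.2%, against 17.3% of all common regions. Another 6 were lower (sites 8, 10, 11, 25, 37 and 42), also 16.2%, against 19.7%. Both shares were near the background. The median difference between wild type and the mean of the clones was −1.39 points, against 0.0324 points over all common regions. The median difference between the clones was 12.4 points at the members and 12.2 points over all common regions, and the median size of the difference between wild type and the mean of the clones was 9.45 and 12.4 points.

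Along chromosome 7, 4 of the 6 higher sites lay between the positions of Igf2 and Kcnq1ot1, all of them among sites 23 to 32. That stretch also held 20 of the 33 sites of the chromosome 7 window called in all 3 lists. The sites nearest to H19 and to Igf2 were both among the lower ones. These positions were looked at after the values were seen, and the stretch from Igf2 to Kcnq1ot1 held 3 of the lower sites too. Its median difference was 0.943 points, against −2.00 before H19 and −0.734 past Cdkn1c. When regions were ranked by −log10 p, 8 sites were higher and 5 lower, among them 4 of the 6 higher and 3 of the 6 lower sites by enrichment, and none changed sides. By −log10 p, sites 24 and 27 no longer counted as higher, nor sites 11, 25 and 37 as lower.

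**Figure D3:**
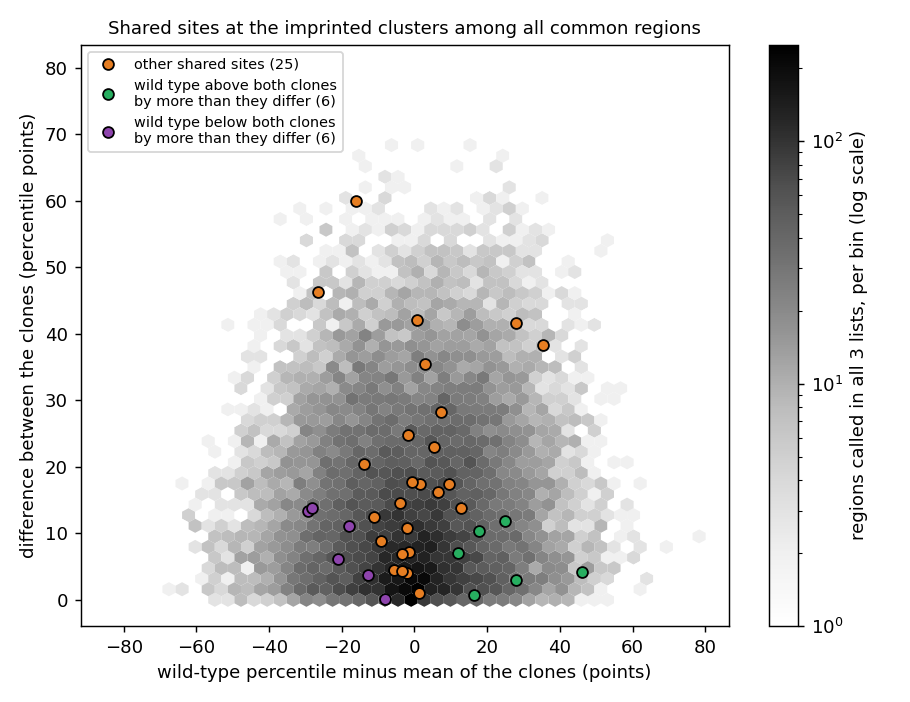
Wild-type percentile minus the mean of the clones (x axis, points) against the difference between the clones (y axis, points) for all 23933 common regions (grey bins, darker for more regions, log scale) and the 37 shared sites (coloured points). The 6 sites above and the 6 sites below both clones lie inside the cloud of all regions, with site 32 farthest to the right at 46.2 points.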

How the data were processed

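CTCF was measured by ChIP-seq in 3 libraries, 1 per line. The submitters' processing notes name bcl2fastq 1.8.4, Bowtie 1.0.0 and genome build mm9. Which peak caller was run, how, and whether inputs served as background is not stated in the sources used here. Peaks were called per library, since each library has a deposited list of its own. Column 7 of the deposited lists holds the authors' fold enrichment, a ratio whose denominator is not given. Column 8 holds the authors' −log10 p, with a lowest value of 5 in each list. Column 9 is in the q-value position of the deposited layout and was read as the authors' false discovery rate, between 0 and 1. It does not decline steadily with strength, and some of the strongest peaks have higher rates than weaker ones. These units were read from the values and the layout, since the files have no header. Read totals are not given, so depth is unknown.

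Peaks of different lists were joined where they overlapped by at least 1 bp. Positions are mm9, counted from 1. Where a line had 2 peaks in a site, the stronger was used. Shares carry exact (Clopper-Pearson) 95% intervals. The members, lists and sites named were chosen with earlier results of these data known. Sites named one by one were those in the control region, the 5 strongest by wild-type enrichment in each window, the nearest to each gene position, those in exactly 2 lists and the 3 strongest in 1 list; the rest are given for completeness. The planned motif search in peaks was not run without mm9 sequence, and the search in promoters was chosen after seeing the data. Python 3.11.15, pandas 2.3.3, numpy 2.4.6, SciPy 1.17.1 and matplotlib 3.10.9 were used. On simulated data 5000 of 5000 regions fell in the right class, and 44 of the 44 planted higher sites that were counted were recovered. These counts check the processing steps only, and recovery of such sites in the real lists was not tested. With bedtools 2.31.1, 6 of 6 overlap counts between the lists were equal. Alternatives were a reciprocal overlap of 50%, extension by 500 bp, thresholds on −log10 p and on the false discovery rate, lists of equal length, wider windows, other rankings and each clone left out.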

Additional observations from a re-analysis of the deposited data

How the results depend on the processing

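Of 76 values under an alternative, 65 stayed within 1.5 times the count or inside the counting interval of the share, and 11 moved. The interval was used for shares because both clones gave the same 80.9%, a spread of 0. Extension by 500 bp, windows widened by 100 kb, ranking by −log10 p and regions with 1 peak per list moved none of the results. A −log10 p of 10 or more gave 3 sites called in wild type only, and a false discovery rate up to 0.05 gave 2, against 8. Those 3 include site 5, called in all 3 lists without the limit, whose clone peaks the −log10 p limit removed. Clone sites without a wild-type peak came to 2 with a reciprocal overlap of 50%, against 1. There were 2 with that −log10 p, 2 with lists of equal length and 5 with that false discovery rate. All 3 unfiltered lists hold the sites counted under the −log10 p limit (8 and 11) and the false discovery rate limit (6, 7, 8, 11 and 19). Their wild-type peaks were removed by the limit, so these counts show no gain in the clones. Site 29, absent from the unfiltered wild-type list, lost its clone C8 peak under either limit. Leaving out a clone gave 2 to 4 sites without a wild-type peak, since a single clone list was then enough: 2 without clone D and 4 without clone C8. Over the whole lists, 52.7% of wild-type, 94.8% of clone D and 85.4% of clone C8 peaks met the limit of 0.05 on the false discovery rate. With it, 94.1% of the wild-type peaks inside the windows were overlapped in clone D, 94.1% in clone C8 and 94.1% in both. The share for the whole wild-type list under this limit is not given here, so these values have no background beside them. That limit did not remove weak peaks alone: 1271 of the 19061 wild-type peaks it removed, 1 of them in the windows, had a −log10 p of 10 or more. For clone D these were 34 of its 1549 removed peaks, and for clone C8 none (0 of 4732). The counts of shared sites with wild type above or below both clones ran from 4 to 8 and from 4 to 6. They need both clones and have no value with 1 left out. No paired analysis was possible because no label pairs the lines and nothing was tested. Depth is unknown, so weak sites may go uncalled in a shallower library.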
